A study of Homo sapiens with 9 samples.

Results

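Transcripts of MDA-MB-231 cells kept in medium conditioned by senescent cells were compared with those of cells kept in medium conditioned by non-senescent cells of the same line, over every gene with a mean of at least 0.5 FPKM (fragments per kilobase of gene, scaled to the library's total) across the 9 libraries of the series. That rule left 13912 of the 58735 genes in the deposited table, 11276 of them protein coding. The contrast was between 3 libraries in each of these groups, and all 9 libraries entered the fit, so that the spread of the 3 others also bears on every p-value. MDA-MB-231 cells are a widely used human line from a triple-negative breast cancer, mesenchymal in character, genotype WT per the labels and grown in DMEM with foetal bovine serum. The control group (Cont CM) received medium from non-senescent MDA-MB-231 cells. The senescent group (TIS CM, for therapy-induced senescence) received medium from MDA-MB-231 cells treated for 72 h with nocodazole at 100 ng/ml, a drug that depolymerizes microtubules. The remaining 3 libraries (No CM) came from cells in plain medium and gave the level without conditioned medium. The labels state 72 h in the medium and the series text 48 h, and neither source settles which applies. All donors and recipients were a single cell line, and nothing states that replicates were separate cultures, so that a p-value here reflects the spread of the libraries alone, possibly a technical one.

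Cells that stop dividing for good after damage often secrete a mixture of cytokines, proteases and growth factors known as the senescence-associated secretory phenotype. Interleukin-1 alpha is known as an upstream member of that programme, since signalling through its receptor activates NF-kB and raises further cytokines. Conditioned medium carries such factors to recipient cells, and it also differs from fresh medium in nutrients and waste products. Medium from untreated cells therefore served as the control for conditioning. The sample details used here give no number of donor cells. The extent of conditioning and the senescence of the donors therefore cannot be told apart.

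Each library held between 32636708 and 39189036 fragments on genes, and between 22637 and 23295 genes lay above 0. Markers of the line were present: VIM lay between 345 and 401 FPKM and AXL between 195 and 218, while ESR1 and PGR, the oestrogen and progesterone receptor genes, reached at most 0.00801 and 0.00539 FPKM. Other genes chosen as low or absent in the line were not near 0. EPCAM lay between 7.58 and 10.1 FPKM, the receptor gene ERBB2 between 7.92 and 9.59 and GATA3 between 4.67 and 6.72. CDH1 ranged from 0.212 FPKM in Cont CM 2 to 1.23 in No CM 1. The 5 fibroblast markers examined (DCN, LUM, PDGFRA, COL3A1 and POSTN) summed to between 0.26 and 0.557 FPKM, with DCN listed at 0 in all 9 libraries. The 6 immune cell markers (PTPRC, CD3E, CD14, CSF1R and LYZ among them) summed to between 4.004 and 4.44 FPKM in the Cont CM libraries, 5.38 and 6.04 in those of TIS CM and 5.59 and 6.79 in those of No CM. CD14 made up most of that sum, PTPRC stayed at or below 0.0277 FPKM and CD3E at or below 0.0278 FPKM. In bulk libraries fewer expressing cells and less RNA per cell cannot be told apart.

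A pair of Cont CM libraries stood apart. Across genes, Cont CM 1 correlated with Cont CM 2 and 3 at r = 0.987 and 0.989, while the TIS CM libraries correlated with each other at between 0.9929 and 0.9932. In Cont CM 2 the values followed the GC content and length of the transcript, a trend that held 17.2% of the variance of its deviations from the gene means while the other 8 ranged from 0.178% to 5.03%. Each group of results is therefore given with what leaving out single libraries did to its calls.

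Differences were tested with limma on log2(FPKM + 0.5), a scale that understates the change of low genes, and fold changes here are on that scale. A gene is said to have risen or fallen where the Benjamini-Hochberg adjusted p over all 13912 genes lay under 0.05. On that rule 404 genes (2.9%) rose and 219 (1.57%) fell in TIS CM, 623 (4.48%) in all, and 27 (0.194%) rose and 15 (0.108%) fell by more than 1.5-fold. Without Cont CM 1 the counts were 675 and 409, without Cont CM 2 67 and 32, without TIS CM 1 7 and 4, without TIS CM 2 20 and 5 and without TIS CM 3 58 and 25. A fit of the 6 TIS CM and Cont CM libraries alone, in which the differences are the same and the spread of No CM is left out, called 23 higher and 10 lower. It ended 150 of the 172 calls among the genes chosen to be named. What this fit did is therefore also given below for the lists and the genes outside them. The higher genes made up 64.8% of the calls, and 41.8% after scaling to equal library sums and 53.2% after quantile normalization. The median log2 fold change over all tested genes was 0.00. Groups that did not overlap were common, with 2083 genes (15%) higher and 1897 (13.6%) lower in every TIS CM library than in every Cont CM library.

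**Figure D1:**
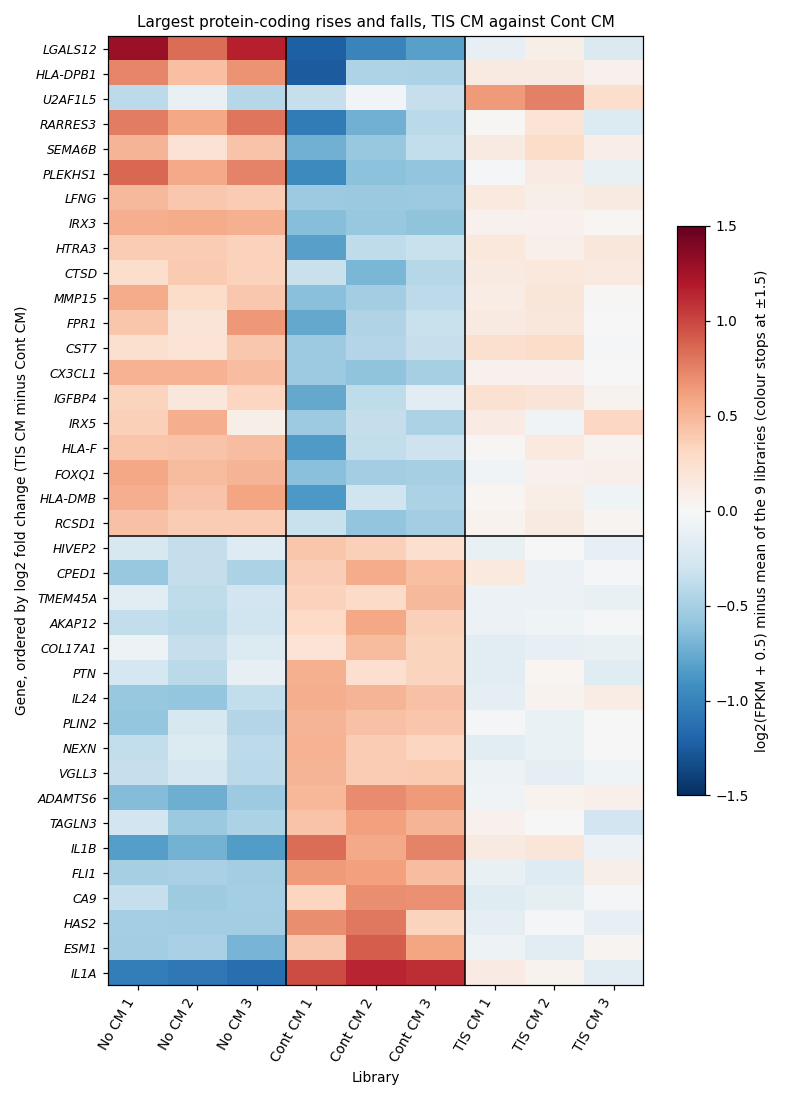
Heat map of the 20 largest protein-coding rises and 18 of the 20 largest falls in TIS CM against Cont CM (rows) in the 9 libraries (columns). Colour gives log2(FPKM + 0.5) minus the gene's mean over the 9 libraries, red above and blue below it. Rows were chosen among genes whose TIS CM and Cont CM libraries do not overlap, and the largest fall is IL1A at 18.2, 17.4 and 14.8 against 33.5, 37.7 and 36.7 FPKM.

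The calls divided by base composition. Genes that rose had a median transcript GC content of 58.9% and a median length of 3501 bases, and genes that fell 42.7% and 6297 bases, against 48.5% over all tested genes. When the genes were put in order of GC content and divided into 4 equal groups, 13 rose and 103 fell in the lowest group, and 261 rose and 4 fell in the highest. With each library's trend on GC content and length removed, the 4 groups held 16, 22, 26 and 35 genes that rose and 13, 17, 12 and 12 that fell, in order of rising GC content. In total 99 rose and 54 fell after removal, and 91 and 46 of them had been called before removal. Deviations from the gene means correlated with GC content at r = -0.03, -0.41 and -0.20 in Cont CM 1, 2 and 3. They did so at 0.07, 0.11 and 0.22 in TIS CM 1, 2 and 3 and at -0.02, 0.18 and 0.19 in No CM. Every Cont CM value was negative and every TIS CM value positive. The share of each gene's difference that follows from composition was not tested. How many calls the removal ended is given below for the lists and the genes outside them.

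**Figure D2:**
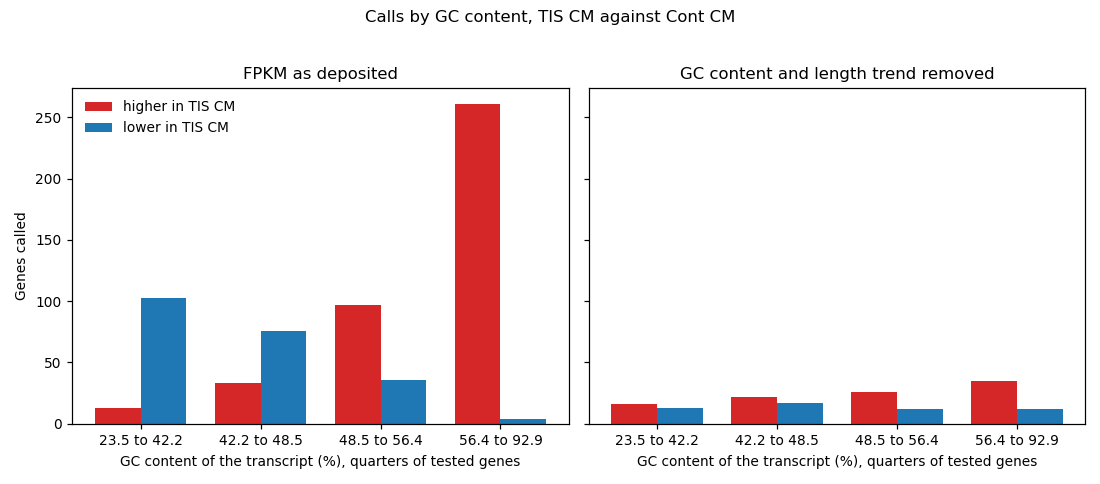
Number of genes called higher (red) and lower (blue) in TIS CM than in Cont CM in 4 equal groups of the tested genes by GC content of the transcript (x axis, percent), from the deposited FPKM (left) and after removal of each library's trend on GC content and length (right). The highest group goes from 261 higher and 4 lower to 35 and 12, and the lowest from 13 and 103 to 16 and 13.

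Leaving out each of the 6 TIS CM and Cont CM libraries in turn kept 11 genes (0.0791% of those tested) called in all 6 fits, of which 10 are described here. IL1A, PLOD2 and ANKRD13A were lower, and IRX3, LFNG, CX3CL1, FOXQ1, ADAMTS15, FZD7 and SEMA3B were higher. These 10 also passed after removal of the GC content and length trend, with limma adjusted p between 0.000501 for IL1A and 0.0283 for PLOD2. They passed in the fit of the 6 compared libraries as well, with limma adjusted p between 0.0154 for IL1A and 0.0422 for PLOD2.

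IL1A (hg38 chromosome 2, 112773915 to 112784590, minus strand) stood at 33.5, 37.7 and 36.7 FPKM in the Cont CM libraries and 18.2, 17.4 and 14.8 in the TIS CM libraries. The lowest Cont CM library was far above the highest TIS CM library, and the No CM libraries were lower still, at 7.88, 7.69 and 7.34 FPKM. The log2 fold change was -1.08 with SE 0.08, a 2.11-fold fall (limma adjusted p = 0.000675).

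PLOD2 encodes a lysyl hydroxylase that prepares collagen for crosslinking (chromosome 3, 146069440 to 146163653, minus strand). Its level was 50.1, 46.6 and 45.3 FPKM under Cont CM and 35.7, 35.8 and 34.95 under TIS CM, a 1.33-fold fall (log2 fold change -0.41, SE 0.04, limma adjusted p = 0.00467). ANKRD13A, a ubiquitin-binding protein that acts on internalized receptors (chromosome 12, 109999186 to 110039763, plus strand), went from 19.4, 18.98 and 18.5 FPKM to 14.97, 14.6 and 14.7, a fall of 1.28-fold (limma adjusted p = 0.00465). In neither gene did the groups overlap, and the No CM libraries lay below both groups, at 32.1, 32.5 and 31.1 FPKM for PLOD2 and 12.3, 12.95 and 12.6 for ANKRD13A.

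Among the raised genes was IRX3, an Iroquois homeobox transcription factor (chromosome 16, 54283304 to 54286763, minus strand), with 3.47, 3.66 and 3.55 FPKM under Cont CM, 5.94, 5.96 and 5.81 under TIS CM and 8.48, 8.598 and 8.42 in No CM. Its 1.58-fold rise had a limma adjusted p of 0.0003205. LFNG, a glycosyltransferase that modifies Notch receptors (chromosome 7, 2512529 to 2529177, plus strand), stood at 2.31, 2.29 and 2.298 FPKM under Cont CM and 4.03, 3.84 and 3.98 under TIS CM (1.59-fold, limma adjusted p = 0.000918). Neither gene's groups overlapped, and both were highest in No CM, where LFNG was at 5.25, 4.91 and 4.81 FPKM.

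The remaining genes encode ligands, a receptor, a transcription factor and a protease. CX3CL1 (fractalkine), a chemokine tethered to the cell surface (chromosome 16, 57372458 to 57385048, plus strand), was at 2.28, 2.17 and 2.37 FPKM under Cont CM and 3.74, 3.75 and 3.58 under TIS CM, a 1.51-fold rise (limma adjusted p = 0.00218). The Wnt receptor gene FZD7 (chromosome 2, 202034587 to 202038445, plus strand) was at 14.9, 15.1 and 16.6 FPKM under Cont CM and 22.1, 22.02 and 21.9 under TIS CM, a 1.41-fold rise (limma adjusted p = 0.00363). The secreted guidance factor SEMA3B (chromosome 3, 50267558 to 50277546, plus strand) went from 6.16, 6.03 and 6.41 to 8.93, 9.26 and 8.44 FPKM, 1.399-fold (limma adjusted p = 0.00363). In each of these genes every TIS CM library exceeded every Cont CM library, and the No CM means were higher again, at 5.24, 24.4 and 11.2 FPKM. FOXQ1, a forkhead transcription factor (chromosome 6, 1312440 to 1314748, plus strand), was at 11.3, 12.2 and 12.4 FPKM under Cont CM and 17.05, 18.6 and 18.6 under TIS CM (1.49-fold, limma adjusted p = 0.00261). ADAMTS15, a secreted metalloproteinase that cleaves proteoglycans (chromosome 11, 130448974 to 130476641, plus strand), was at 14.7, 13.4 and 14.6 FPKM under Cont CM and 19.9, 20.4 and 21.1 under TIS CM (1.43-fold, limma adjusted p = 0.002602). Their No CM means, 25.6 and 26.6 FPKM, were also the highest of the 3 groups.

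**Figure D3:**
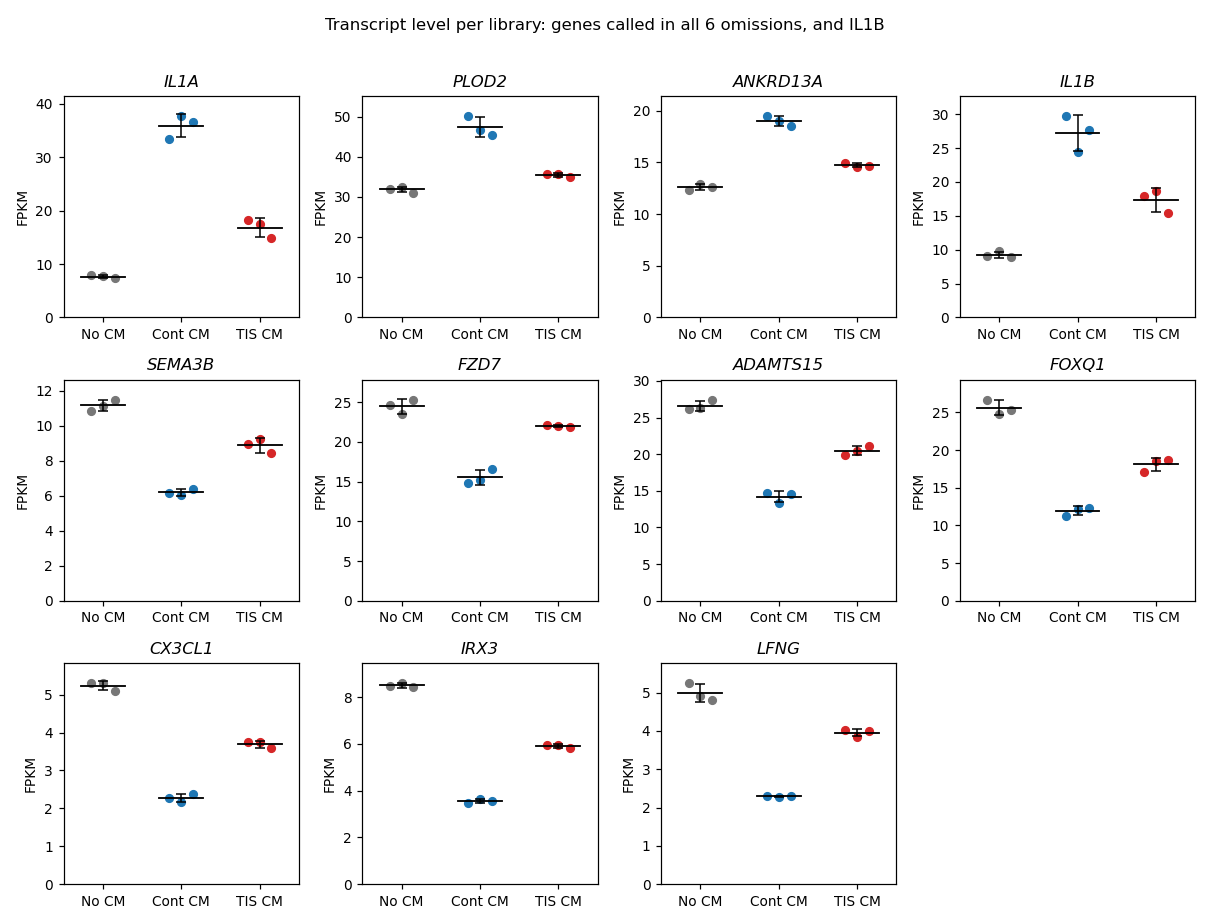
FPKM (y axes, from 0) of 10 genes called in all 6 omissions, and of IL1B, in each library (points) of No CM (grey), Cont CM (blue) and TIS CM (red), with the group mean (line) and SD (bar). In all 11 panels no TIS CM library overlaps a Cont CM library, for example 35.7, 35.8 and 34.95 against 50.1, 46.6 and 45.3 FPKM for PLOD2.

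A further 12 genes kept the call in 5 of the 6 omissions. IL1B was the only one that was lower. The others, chosen here after their values were seen, included the nucleosome-binding HMGN2, which went from 117 to 159 FPKM (limma adjusted p = 0.00731), the surface protein LY6E, from 46.2 to 67.4 FPKM (limma adjusted p = 0.00731), and the organic anion transporter SLCO4A1, from 9.69 to 13.4 FPKM (limma adjusted p = 0.00731). The glutamine transporter SLC1A5, the caveolar CAVIN3, AP1S1 of the clathrin adaptor, SLC2A4RG, VSTM2L, SAPCD2, TP53I13 and the disulfide isomerase TXNDC5 made up the rest. Every other call was lost in 2 or more omissions, and 52 (0.374% of tested genes) were lost in all 6.

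Both genes that fell in the interleukin-1 family encode its classical ligands, IL1A and IL1B. Of 15 tested members of the family 2 fell, 0 rose and 13 did not pass (13.3% lower against 1.57% of all genes), with a median log2 fold change of -0.07. IL1B, which lies 45160 bases from IL1A on chromosome 2, was at 29.7, 24.4 and 27.7 FPKM under Cont CM, 17.97, 18.7 and 15.4 under TIS CM and 9.01, 9.79 and 8.901 in No CM. Every TIS CM library lay below every Cont CM library, and the fall was 1.55-fold (limma adjusted p = 0.0122). The receptor gene IL1R1 was at 4.47 ± 0.172 FPKM under Cont CM and 4.47 ± 0.224 under TIS CM (SD, n = 3, limma adjusted p = 0.991), and the groups overlapped. The antagonist gene IL1RN also overlapped between groups (log2 fold change 0.04, limma adjusted p = 0.854).

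The promoter of IL1A is shown because that gene had the largest fall among protein-coding genes. The sequence is the 250 bases before the transcription start in RefSeq's GRCh38.p14 table, at chr2:112784494-112784743 on the minus strand, with capitals on its single match to TGANTCA, the element bound by AP-1 factors. The match lies 12 bases before the start. The start of IL1A in the deposited annotation lies inside this window, upstream of the RefSeq start. A match on either strand occurred in 6.57% of 27305 promoters of the same length, and in 3.97% of the 9859 that belong to tested genes.
IL1A: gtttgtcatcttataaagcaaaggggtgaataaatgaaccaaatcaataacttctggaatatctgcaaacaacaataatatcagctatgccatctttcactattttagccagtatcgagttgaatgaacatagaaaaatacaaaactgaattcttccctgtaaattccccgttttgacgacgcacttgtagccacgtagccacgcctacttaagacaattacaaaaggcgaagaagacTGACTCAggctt

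Beside the ligands, the cytokine and NF-kB lists held calls in both directions. Among 22 NF-kB subunits and feedback genes, IKBKE, a kinase of the pathway, was the gene that rose, by 1.22-fold (4.55% against 2.9% of all genes), and 0 fell (median -0.00). The feedback inhibitor TNFAIP3 was at 7.27, 6.19 and 5.79 FPKM under Cont CM and 4.81, 4.66 and 4.89 under TIS CM and did not pass (limma adjusted p = 0.0578), although its groups did not overlap. IL6 was at 98.5, 52.3 and 53.6 FPKM under Cont CM and 44.6, 43.8 and 42.7 under TIS CM (limma adjusted p = 0.134), with Cont CM 1 well above the other libraries. CXCL8 was at 237, 212 and 214 FPKM under Cont CM and 208, 204 and 184 under TIS CM (limma adjusted p = 0.194), and its groups did not overlap. LIF overlapped between groups (limma adjusted p = 0.443).

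Of 14 chemokines and receptors 2 rose (14.3% against 2.9% of all genes) and 1 fell (7.14% against 1.57%). Beside CX3CL1, the atypical receptor CCRL2 rose 1.21-fold. CXCR4, the receptor of CXCL12 known for its part in breast cancer spread, fell 1.23-fold, from 25.5, 23.8 and 21.4 FPKM to 19.1, 18.3 and 19.5. CSF1, the growth factor of macrophages, stood at 94.1, 79.96 and 90.1 FPKM under Cont CM and 124, 127 and 120.4 under TIS CM, with no overlap (1.41-fold higher, limma adjusted p = 0.00775). IL24, a cytokine of the interleukin-10 family, was at 8.59, 8.43 and 7.99 FPKM under Cont CM and 5.198, 5.997 and 6.23 under TIS CM, a 1.404-fold fall (limma adjusted p = 0.01699). In the interleukin-6 family 14 genes were tested, of which 1 rose and 1 fell (7.14% each). The oncostatin M receptor gene OSMR fell 1.18-fold and CEBPD, a transcription factor induced by the pathway, rose 1.23-fold. None of 17 TNF receptor genes was called. Of the 10 genes called on these lists, 8, 7 and 5 lost the call without TIS CM 1, 2 and 3, and 1, 6 and 2 without Cont CM 1, 2 and 3 (limma adjusted p between 0.0515 and 0.146 where lost), with no change of sign. Removal of the composition trend ended 4 of them, and the fit of the 6 compared libraries 7 (limma adjusted p up to 0.0951).

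Every gene that passed on the MHC class I and class II lists rose, HLA-DPB1 by the most. Class II molecules present peptides from endocytosed protein, are normally confined to immune cells, and depend on the co-activator CIITA. Of 14 class II genes tested 3 rose, 0 fell and 11 did not pass, a share of 21.4% higher against 2.9% of all genes. The median log2 fold change was 0.53, against 0.00 over all tested genes, and 0.35 without Cont CM 1, the lowest library for HLA-DRA, CD74 and CIITA. After removal of the composition trend the median was 0.54, but no member passed. The list held 6 calls without Cont CM 1, 1 without Cont CM 2 or Cont CM 3 and 0 without TIS CM 1, 2 or 3. It held 0 in the fit of the 6 compared libraries, where HLA-DPB1 had a limma adjusted p of 0.0948.

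HLA-DPB1, a beta chain, was at 6.51, 11.6 and 11.5 FPKM under Cont CM, 17.8, 17.8 and 16.9 under TIS CM and 27.2, 22.2 and 26.04 in No CM. The 1.79-fold rise had a limma adjusted p of 0.0403. HLA-DMB, which helps to load peptides, was at 1.37, 2.25 and 1.93 FPKM under Cont CM and 2.96, 3.13 and 2.73 under TIS CM (1.48-fold, limma adjusted p = 0.0432). In both, every TIS CM library lay above every Cont CM library and below every No CM library. HLA-DOA, a regulator of loading, was at 1.29, 1.92 and 1.77 FPKM under Cont CM and 2.69, 2.61 and 2.35 under TIS CM (1.42-fold, limma adjusted p = 0.0363). The most abundant chain, HLA-DRA, was at 59.1, 115 and 103 FPKM under Cont CM and 169, 166 and 148 under TIS CM and did not pass (limma adjusted p = 0.0574), nor did the invariant chain CD74 at 74.6, 128 and 123 FPKM under Cont CM and 168, 170.3 and 159 under TIS CM (limma adjusted p = 0.0671). For both the groups did not overlap, and Cont CM 1 was the lowest library. CIITA was at 0.936, 1.38 and 1.08 FPKM under Cont CM and 1.52, 1.45 and 1.64 under TIS CM (limma adjusted p = 0.102). Reads of the similar HLA genes may be shared between them, so the level of a single chain is uncertain. Of the immune cell markers, CD14 was at 3.63, 3.14 and 3.37 FPKM under Cont CM and 4.42, 4.86 and 4.13 under TIS CM, and CSF1R at 0.347, 0.818 and 0.762 FPKM under Cont CM and 0.823, 0.833 and 0.851 under TIS CM, neither with overlap. PTPRC, at most 0.0277 FPKM, was also higher in every TIS CM library than in every Cont CM library, CD3E was listed at 0 in the 3 Cont CM libraries and in TIS CM 1 and 2, and LYZ overlapped between groups. The part of these markers in the class II result was not tested.

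**Figure D4:**
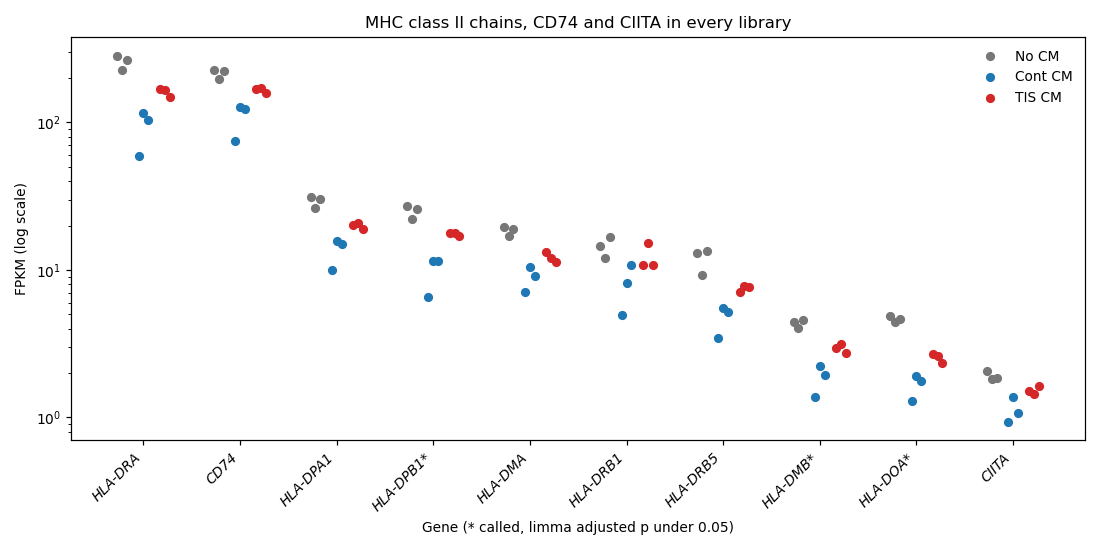
FPKM (y axis, log scale) of 8 MHC class II chain genes, CD74 and CIITA in each library of No CM (grey), Cont CM (blue) and TIS CM (red), with genes ordered by mean level and called genes starred. Cont CM 1 is the lowest point of every gene shown, for example 59.1, 115 and 103 FPKM for HLA-DRA in Cont CM 1, 2 and 3, against 169, 166 and 148 FPKM in TIS CM 1, 2 and 3.

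The promoters of the called class II genes are printed because class II promoters are known to share a Y box, an inverted CCAAT element bound by NF-Y. They are the 250 bases before the RefSeq start in GRCh38.p14, at chr6:33075740-33075989 (plus strand), chr6:32941029-32941278 and chr6:33009592-33009841 (both minus strand), with capitals on ATTGG or its complement CCAAT. The deposited annotation places the start of each gene inside its window. Such a match on either strand was held by 33% of the 27305 promoters and by 35.2% of the 9859 of tested genes. It was held by 8 of the 11 class II list members with a promoter in the table.
HLA-DPB1: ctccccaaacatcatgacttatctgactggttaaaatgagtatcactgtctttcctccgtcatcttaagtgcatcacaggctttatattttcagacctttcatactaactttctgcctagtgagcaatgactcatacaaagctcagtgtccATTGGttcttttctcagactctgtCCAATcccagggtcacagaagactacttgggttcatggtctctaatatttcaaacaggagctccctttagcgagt
HLA-DMB: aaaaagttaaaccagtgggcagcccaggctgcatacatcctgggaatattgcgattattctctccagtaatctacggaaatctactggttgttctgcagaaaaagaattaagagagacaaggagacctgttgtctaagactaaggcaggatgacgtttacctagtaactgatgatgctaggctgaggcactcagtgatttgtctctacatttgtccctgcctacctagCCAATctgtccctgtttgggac
HLA-DOA: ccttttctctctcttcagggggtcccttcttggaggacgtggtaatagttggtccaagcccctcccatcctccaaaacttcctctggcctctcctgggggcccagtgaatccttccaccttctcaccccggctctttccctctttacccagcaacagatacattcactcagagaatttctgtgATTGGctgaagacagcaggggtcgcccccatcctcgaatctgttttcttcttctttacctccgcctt

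Class I genes and the machinery that supplies them with peptides held 21 tested members. Of these 6 rose (28.6% against 2.9% of all genes) and 0 fell (median 0.17, 0.10 without Cont CM 1). HLA-F, a non-classical class I gene, rose 1.496-fold, from 0.935, 1.497 and 1.59 FPKM to 2.12, 2.36 and 2.18. The immunoproteasome subunit gene PSMB10 went from 2.81, 2.59 and 2.83 to 3.92, 3.97 and 3.92 FPKM (1.37-fold, limma adjusted p = 0.00775), and PSMB8, another subunit, rose 1.19-fold. The proteasome activators PSME1 and PSME2 and the peptide transporter TAP1 were the other rises, with log2 fold changes of 0.30, 0.22 and 0.23. HLA-B and HLA-C did not pass (limma adjusted p = 0.411 and 0.213).

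Of 33 interferon-stimulated genes outside this group 1 rose, IFI35 by 1.28-fold, a share of 3.03% beside 2.9% of all genes, and the median was 0.05. FPR1, the formyl peptide receptor, rose 1.53-fold as the call among 18 complement, coagulation and related genes (5.56% of the list). CD274, encoding the checkpoint ligand PD-L1, was at 12.6, 11.3 and 11.9 FPKM under Cont CM and 9.86, 9.29 and 9.94 under TIS CM. The gene fell 1.22-fold with no overlap (limma adjusted p = 0.0211). It was the call among 17 checkpoint and surface immune genes (5.88% lower against 1.57% of all genes). Without TIS CM 1, 2 and 3, 12, 12 and 10 of the 12 calls on these 5 immune lists were lost, and without Cont CM 1, 2 and 3, 1, 8 and 4 (limma adjusted p between 0.0508 and 0.144), each with its sign kept. Trend removal ended 10, and the fit of the 6 compared libraries 11 (limma adjusted p up to 0.104).

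Every gene that passed on the hypoxia and angiogenesis lists fell. Of 28 genes of the hypoxia response 4 fell (14.3% against 1.57% of all genes), 0 rose and 24 did not pass, and the median was -0.13 with 5 of the 28 differences above 0. CA9, a carbonic anhydrase and a standard target of hypoxia-inducible factors, was at 4.66, 6.198 and 6.15 FPKM under Cont CM, 3.15, 3.23 and 3.57 under TIS CM and 2.75, 2.36 and 2.41 in No CM. Its fall was 1.61-fold (limma adjusted p = 0.0157). LOX, the oxidase that crosslinks collagen, was at 22.2, 24.3 and 21.4 FPKM under Cont CM and 17.3, 17.2 and 17.3 under TIS CM (1.301-fold lower, limma adjusted p = 0.0113), and MXI1, a MYC antagonist, fell 1.198-fold. PLOD2, described above, is the other member that fell. The group of CA9, LOX and PLOD2 showed no overlap between TIS CM and Cont CM. VEGFA was at 17.1, 21.5 and 19.9 FPKM under Cont CM and 17.3, 16.6 and 16.9 under TIS CM, with overlap (limma adjusted p = 0.241), and ANGPTL4 at 20.5, 17.9 and 22.3 FPKM under Cont CM and 11.3, 9.55 and 11.6 under TIS CM without overlap (limma adjusted p = 0.0567). The glucose transporter gene SLC2A1 had a log2 fold change of 0.01, and 0 of 16 glycolysis genes rose and 0 fell.

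Promoters of CA9, PLOD2 and LOX are given because they carry ACGTG, the core of the element bound by hypoxia-inducible factors, which capitals mark on either strand (CACGT on the other). They lie at chr9:35673678-35673927 (plus strand), chr3:146161185-146161434 and chr5:122078260-122078509 (both minus strand), with 1, 2 and 4 matches. The start in the deposited annotation lies inside the windows of CA9 and LOX and upstream of that of PLOD2. The core was held by 18.6% of the 27305 promoters of 250 bases and by 23.9% of the 9859 of tested genes. It was held by 11 of the 24 hypoxia list members with a promoter in the table. MXI1, which also fell, was not among these 11, while ANGPTL4, BNIP3, EGLN1 and HK2, which did not pass, were.
CA9: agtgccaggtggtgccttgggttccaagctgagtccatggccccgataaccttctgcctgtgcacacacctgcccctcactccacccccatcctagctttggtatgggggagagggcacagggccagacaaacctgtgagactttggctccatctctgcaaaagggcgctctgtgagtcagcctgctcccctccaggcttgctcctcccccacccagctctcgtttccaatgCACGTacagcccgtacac
PLOD2: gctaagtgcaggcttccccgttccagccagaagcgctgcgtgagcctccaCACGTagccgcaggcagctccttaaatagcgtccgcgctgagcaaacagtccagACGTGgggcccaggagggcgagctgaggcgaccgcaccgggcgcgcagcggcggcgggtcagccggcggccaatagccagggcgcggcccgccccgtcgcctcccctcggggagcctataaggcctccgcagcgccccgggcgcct
LOX: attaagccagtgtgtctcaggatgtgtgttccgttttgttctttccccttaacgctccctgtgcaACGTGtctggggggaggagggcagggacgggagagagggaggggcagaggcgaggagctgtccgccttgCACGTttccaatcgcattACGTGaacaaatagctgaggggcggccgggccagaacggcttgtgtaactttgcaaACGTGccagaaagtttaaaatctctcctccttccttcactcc

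Among 18 angiogenic factors and receptors 4 fell (22.2% against 1.57% of all genes) and 0 rose. ESM1 (endocan), a secreted proteoglycan, was at 4.03, 5.89 and 4.63 FPKM under Cont CM and 2.73, 2.56 and 2.997 under TIS CM (1.63-fold lower, limma adjusted p = 0.0211). The ETS transcription factor gene FLI1 was at 1.93, 1.88 and 1.64 FPKM under Cont CM and 0.937, 0.863 and 1.16 under TIS CM (1.56-fold lower, limma adjusted p = 0.0145), and its relative ETS1, which is far more abundant, at 63.9, 55.5 and 56.97 FPKM under Cont CM and 46.1, 45.4 and 48.8 under TIS CM (1.25-fold lower). The growth factor FGF5 fell 1.32-fold. None of these 4 genes overlapped between groups, and all 4 had lower No CM means, 1.805 FPKM for ESM1, 0.602 for FLI1, 42.3 for ETS1 and 4.28 for FGF5. The 8 calls of these lists became 7, 7 and 4 fewer without TIS CM 1, 2 and 3 and 0, 5 and 1 fewer without Cont CM 1, 2 and 3 (limma adjusted p up to 0.109), and 3 fewer with the trend removed. The fit of the 6 compared libraries kept PLOD2 and ended the other 7 (limma adjusted p up to 0.0745).

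Matrix genes passed in both directions. Of 18 laminin and integrin genes 0 rose and 3 fell (16.7% against 1.57% of all genes), among them the beta 3 integrin ITGB3 (1.28-fold) and LAMB1 (1.12-fold). Of 19 hyaluronan and proteoglycan genes, the hyaluronan synthase HAS2 went from 3.28, 3.51 and 2.43 FPKM to 1.62, 1.803 and 1.63 (1.62-fold lower, limma adjusted p = 0.0169) and tenascin-C (TNC) from 25.2, 25.4 and 23.9 to 19.05, 19.6 and 20.2 FPKM (1.26-fold lower, limma adjusted p = 0.0122). The cell surface proteoglycan GPC1 rose 1.44-fold, from 6.34, 6.64 and 8.04 to 10.2, 10.1 and 10.5 FPKM. These 3 were the calls of the list (5.26% higher against 2.9% of all genes and 10.5% lower), and groups overlapped in none of them.

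Collagens split as well, with 4 of 26 members higher (15.4% against 2.9% of all genes) and 2 lower (7.69% against 1.57%). COL1A2, COL18A1, COL6A1 and the collagen chaperone SERPINH1 rose, by 1.34, 1.26, 1.2004 and 1.28-fold. COL17A1, a transmembrane collagen of hemidesmosomes, fell 1.39-fold from 6.28, 7.69 and 6.94 to 4.78, 4.92 and 4.94 FPKM, and COL8A1 fell 1.26-fold. With the composition trend removed both falls passed and none of the 4 rises did (limma adjusted p = 0.0581, 0.0952, 0.0922 and 0.0631). The log2 fold change went from 0.42 to 0.49 for COL1A2, from 0.33 to 0.20 for COL18A1, from 0.26 to 0.16 for COL6A1 and from 0.36 to 0.32 for SERPINH1.

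Proteases and their inhibitors also went both ways. Of 26 metalloproteinases and inhibitors 3 rose (11.5% against 2.9% of all genes) and 1 fell (3.85% against 1.57%). The rises were MMP15, a membrane-bound matrix metalloproteinase, by 1.54-fold, ADAM15 by 1.17-fold, and ADAMTS15. ADAMTS6 was at 2.48, 2.95 and 2.77 FPKM under Cont CM, 1.54, 1.68 and 1.73 under TIS CM and 0.843, 0.774 and 0.945 in No CM, a 1.505-fold fall (limma adjusted p = 0.01297). The interstitial collagenase MMP1 ranged over 343, 698 and 553 FPKM under Cont CM and 476, 431 and 437 under TIS CM, with overlap (limma adjusted p = 0.635). The secreted serine protease HTRA3 was at 0.867, 1.34 and 1.397 FPKM under Cont CM and 2.19, 2.03 and 2.21 under TIS CM, 1.57-fold higher (limma adjusted p = 0.02403), and cystatin C (CST3) rose 1.13-fold. The plasminogen activator genes PLAU and PLAT did not pass (limma adjusted p = 0.668 and 0.0691). Without TIS CM 1, 2 and 3, 17, 17 and 12 of 19 matrix and protease calls were lost, without Cont CM 1, 2 and 3 0, 10 and 3 (limma adjusted p between 0.0512 and 0.153), and with the trend removed 11. The fit of the 6 compared libraries ended 15 (limma adjusted p up to 0.119).

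Every actin cytoskeleton gene that passed fell. Of 39 tested 5 fell (12.8% against 1.57% of all genes), 0 rose and 34 did not pass (median -0.07). NEXN, which binds actin filaments, was at 17.1, 15.5 and 14.9 FPKM under Cont CM, 10.5, 11.01 and 11.7 under TIS CM and 8.98, 10.1 and 8.88 in No CM, with no overlap between the conditioned groups (1.41-fold lower, limma adjusted p = 0.0122). Caldesmon (CALD1) was at 30.4, 28.01 and 27.3 FPKM under Cont CM and 22.2, 22.5 and 22.7 under TIS CM (1.26-fold lower, limma adjusted p = 0.0134). TAGLN3, PDLIM5 and PALLD were the other falls, with log2 fold changes of -0.59, -0.23 and -0.19. After trend removal 39 members held 2 falls, NEXN among them at adjusted p = 0.0384 by limma.

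Targets and partners of the co-activators YAP and TAZ, which respond to cell shape and stiffness, held 1 rise and 2 falls among 28. These were 3.57% and 7.14% of the list, against 2.9% and 1.57% of all genes. VGLL3, a cofactor of TEAD factors, was at 1.58, 1.398 and 1.41 FPKM under Cont CM and 0.876, 0.812 and 0.888 under TIS CM (1.44-fold lower, limma adjusted p = 0.0169). DLC1 fell 1.23-fold, and TEAD4 rose 1.14-fold. The classical targets CTGF, CYR61 and ANKRD1 did not pass (limma adjusted p = 0.394, 0.194 and 0.103). The list's median of -0.09 became -0.00 without Cont CM 1.

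The junction proteins that passed fell. Among 24 cadherins, junction proteins and transition factors 3 fell (12.5% against 1.57% of all genes). The desmosomal genes DSP and DSG2 fell 1.25 and 1.17-fold and the tight junction gene TJP1 1.18-fold. SMURF2, a ubiquitin ligase that limits TGF-beta signalling, was at 63.6, 63.3 and 62.6 FPKM under Cont CM and 54.8, 53.8 and 51.9 under TIS CM (1.18-fold lower, limma adjusted p = 0.0161). It was the call among 23 genes of that pathway (4.35% of the list). In the other direction, the calcium-binding S100A4 rose 1.33-fold and the luminal factor SPDEF 1.15-fold. The 17 calls on all cytoskeleton and junction lists lost 17, 17 and 15 without TIS CM 1, 2 and 3 and 1, 12 and 5 without Cont CM 1, 2 and 3 (limma adjusted p between 0.0508 and 0.14), none changing sign. Trend removal took 11, and the fit of the 6 compared libraries 16, NEXN being the call it kept (limma adjusted p up to 0.119).

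In BMP signalling 5 of 15 tested genes were higher (33.3% against 2.9% of all genes) and 0 lower. Bone morphogenetic proteins act through SMAD factors, of which the inhibitor of differentiation (ID) genes and SMAD6 are direct targets. ID1 was at 63.8, 55.05 and 52.4 FPKM under Cont CM, 84.8, 78.2 and 76.2 under TIS CM and 114, 109 and 114 in No CM (1.397-fold higher, limma adjusted p = 0.0145). ID3 was at 8.42, 9.42 and 9.88 FPKM under Cont CM and 13.2, 13.7 and 12.1 under TIS CM (1.39-fold higher, limma adjusted p = 0.0122), and its groups, like those of ID1, did not overlap. The inhibitory SMAD6 was at 0.609, 0.502 and 0.566 FPKM under Cont CM and 0.898, 1.03 and 0.986 under TIS CM, the bHLH factor ATOH8 at 0.469, 0.321 and 0.33996 FPKM under Cont CM and 0.763, 0.815 and 0.9599 under TIS CM, and the ligand BMP4 at 92.03, 76.4 and 82.005 FPKM under Cont CM and 110.2, 112 and 113 under TIS CM (log2 fold changes 0.48, 0.62 and 0.42). The median over the list was 0.12, and 0.05 without Cont CM 1. Calls on the list numbered 0 without TIS CM 1 or TIS CM 2, 2 without TIS CM 3 or Cont CM 2, 4 without Cont CM 3 and 5 without Cont CM 1. After trend removal 4 of the 5 rises passed and SMAD6 did not (log2 fold change 0.43, limma adjusted p = 0.0608). In the fit of the 6 compared libraries none passed, with a limma adjusted p of 0.0588 for ID1.

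Notch, Wnt and semaphorin genes that passed were all higher. LFNG was the call among 20 Notch genes (5% against 2.9% of all genes). The Notch target HES1 was at 2.04, 3.52 and 3.75 FPKM under Cont CM and 4.25, 4.19 and 3.74 under TIS CM, with overlap (limma adjusted p = 0.243). Of 23 Wnt genes 3 rose (13% against 2.9% of all genes), all of them receptors: FZD7, FZD1 (1.296-fold) and the co-receptor LRP5 (1.17-fold). Of 18 semaphorins and their receptors 4 rose (22.2%). SEMA6B, a transmembrane semaphorin, was at 6.61, 7.43 and 8.55 FPKM under Cont CM and 12.4, 13.6 and 12.1 under TIS CM (1.65-fold, limma adjusted p = 0.0122), SEMA3F rose 1.398-fold and the receptor PLXNA1 1.32-fold. SEMA6B, SEMA3F and PLXNA1 had a limma adjusted p of 0.0625, 0.08502 and 0.131 after trend removal, with log2 fold changes of 0.57, 0.39 and 0.33 after 0.72, 0.48 and 0.40 before it, while SEMA3B passed.

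The chosen list of homeobox genes held 4 rises (21.1% against 2.9% of all genes) and 0 falls among 19. The homeobox family of the deposited annotation is larger. It held 4 rises and 0 falls among 41 tested genes, with a median log2 fold change of 0.06, so the share depends on the list. IRX5, a neighbour of IRX3 at a distance of 644098 bases on chromosome 16, was at 1.04, 1.26 and 1.12 FPKM under Cont CM and 1.96, 1.66 and 2.301 under TIS CM (1.502-fold, limma adjusted p = 0.0432). PITX1 was at 23.1, 25.7 and 23.7 FPKM under Cont CM and 31.7, 32.8 and 32.1 under TIS CM (1.33-fold, limma adjusted p = 0.00731). Of the growth factor genes, the receptor EGFR and the ERK phosphatase DUSP5 fell 1.13 and 1.15-fold among 25 (8% against 1.57% of all genes). Of 21 immediate early genes 2 rose (9.52% against 2.9% of all genes), IER5L (1.43-fold) and KLF2 (1.21-fold). ATF3 was the fall (1.25-fold, 4.76% of the list against 1.57%). FOS stood at 1.45, 2.05 and 1.42 FPKM under Cont CM and 4.71, 2.49 and 2.73 under TIS CM without passing (limma adjusted p = 0.146). Over the signalling and homeobox lists 22 genes were called, of which 18, 18 and 14 were lost without TIS CM 1, 2 and 3 and 3, 13 and 5 without Cont CM 1, 2 and 3 (limma adjusted p between 0.0501 and 0.151), and 12 with the trend removed. The fit of the 6 compared libraries ended 16 (limma adjusted p up to 0.116).

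**Figure D5:**
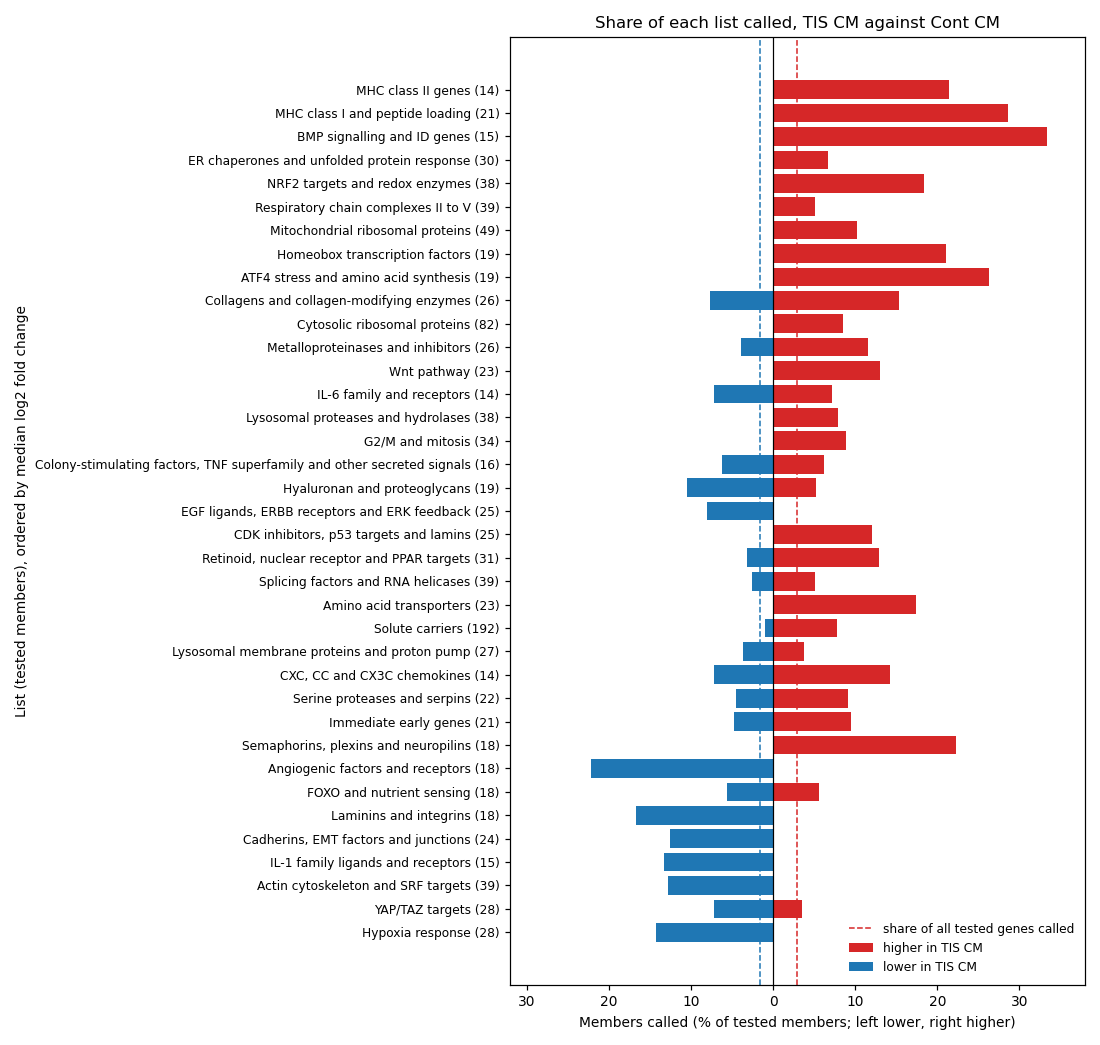
Share of the tested members of each gene list called higher (red, to the right) or lower (blue, to the left) in TIS CM than in Cont CM, as a percentage, for lists with at least 14 tested members (number in brackets) and at least 2 calls, with 1 such list left out, ordered by median log2 fold change. Dashed lines mark the shares over all tested genes, 2.9% higher and 1.57% lower. The longest red bar is BMP signalling at 33.3% and the longest blue bar angiogenic factors at 22.2%.

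CTSD, which encodes the lysosomal aspartic protease cathepsin D, rose. It was at 129, 101 and 121 FPKM under Cont CM, 178, 181 and 180.5 under TIS CM and 196, 213 and 207 in No CM, a 1.55-fold rise (limma adjusted p = 0.00997). The TIS CM libraries lay close together and above all Cont CM libraries. Among 38 lysosomal hydrolases CTSF and the sphingomyelinase SMPD1 also rose, by 1.202 and 1.197-fold. In all 3 of the list rose (7.89% against 2.9% of all genes) and 0 fell (median 0.07). GLB1, the source of the beta-galactosidase activity used to stain senescent cells, overlapped between groups (limma adjusted p = 0.304). In the proton pump and membrane list, ATP6AP1 rose 1.14-fold and ATP6V1D fell 1.14-fold.

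The CTSD promoter is printed because lysosomal genes are known for a CACGTG element bound by TFEB-type factors. The 250 bases before its RefSeq start lie at chr11:1763928-1764177 on the minus strand, and capitals mark the single match, 47 bases before the start. In the deposited annotation the gene begins upstream of this window. That palindrome, which contains the ACGTG core named above, was held by 6.46% of the 27305 promoters and by 8.92% of the 9859 of tested genes.
CTSD: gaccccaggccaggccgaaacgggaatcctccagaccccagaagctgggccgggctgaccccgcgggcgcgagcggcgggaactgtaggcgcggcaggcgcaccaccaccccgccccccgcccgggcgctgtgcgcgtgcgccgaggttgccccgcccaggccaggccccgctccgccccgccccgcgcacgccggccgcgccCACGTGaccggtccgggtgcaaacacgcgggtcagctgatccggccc

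Genes of lipid handling and retinoid response included the largest protein-coding rise. LGALS12, a galectin of lipid droplets, was at 1.09, 1.38 and 1.62 FPKM under Cont CM, 2.94, 3.46 and 2.71 under TIS CM and 8.66, 6.17 and 7.88 in No CM, with no overlap between any of the groups (1.903-fold higher, limma adjusted p = 0.0154). RARRES3, a retinoid-inducible phospholipase gene 20034 bases away on chromosome 11, was at 15.7, 19.7 and 24.8 FPKM under Cont CM and 33.2, 37.9 and 28.3 under TIS CM (1.66-fold higher, limma adjusted p = 0.0383). RARRES2, which encodes the chemoattractant chemerin, rose 1.45-fold and the receptor RXRB 1.14-fold. PLIN2, the coat protein of lipid droplets, went the other way, from 35.7, 34.1 and 33.4 FPKM to 24.5, 23.3 and 25.1 (1.41-fold lower, limma adjusted p = 0.0157), with 16.6, 20.99 and 18.3 in No CM. Of 31 retinoid and PPAR genes 4 rose (12.9% against 2.9% of all genes), 1 fell (3.23% against 1.57%) and 26 did not pass.

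In related lists, the fatty acid regulator SREBF1 rose 1.26-fold as the call among 34 synthesis genes, a share of 2.94% beside 2.9% of all genes. The iron exporter SLC40A1 was at 0.735, 0.941 and 0.783 FPKM under Cont CM and 1.32, 1.64 and 1.32 under TIS CM (1.46-fold higher, limma adjusted p = 0.0281). IGFBP4, which binds insulin-like growth factors, was at 332, 434 and 506 FPKM under Cont CM and 658, 645 and 585 under TIS CM (1.504-fold higher, limma adjusted p = 0.0435). TIPARP, a target of the aryl hydrocarbon receptor, fell 1.23-fold while NQO1, a shared target of that receptor and NRF2, rose 1.33-fold. Of the 15 calls on the lysosomal, lipid, iron and growth factor binding lists, 15, 15 and 13 were lost without TIS CM 1, 2 and 3, 0, 13 and 2 without Cont CM 1, 2 and 3, and 9 with the trend removed (limma adjusted p in the omissions up to 0.142). The fit of the 6 compared libraries kept PLIN2 and ended the other 14 (limma adjusted p up to 0.102).

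The redox and amino acid supply genes that passed rose, each by less than 1.5-fold. Of 38 NRF2 targets and redox enzymes 7 rose (18.4% against 2.9% of all genes) and 0 fell (median 0.11). NQO1 was at 43.8, 53.01 and 54.8 FPKM under Cont CM and 69.4, 63.9 and 67.4 under TIS CM, and the ferritin heavy chain FTH1 at 587, 649 and 661 FPKM under Cont CM and 799.5, 787 and 732 under TIS CM. Neither overlapped between groups. OSGIN1, EPHX1, GSR and TALDO1 had log2 fold changes of 0.33, 0.28, 0.26 and 0.25. None of the 38 members was called when Cont CM 2 was left out, and 3 were with the trend removed.

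ATF4 is the transcription factor of the amino acid response. On its list 5 of 19 genes rose (26.3% against 2.9% of all genes). PSAT1 of serine synthesis went from 30.1, 40.9 and 43.6 to 53.4, 55.7 and 53.04 FPKM (1.43-fold, limma adjusted p = 0.0405). SHMT2, SHMT1, PCK2 and PYCR1 rose by log2 fold changes between 0.23 and 0.28. PSAT1 and SHMT2 had No CM means of 41.95 and 32.1 FPKM, below the TIS CM means of 54.1 and 38.1 FPKM. Amino acid transporters held 4 rises (17.4%) and 0 falls among 23. SLC1A5 was at 56.8, 56.8 and 61.5 FPKM under Cont CM, 74.9, 73.7 and 77.2 under TIS CM and 66.5, 67.98 and 68.8 in No CM (1.29-fold, limma adjusted p = 0.00731), so that its TIS CM libraries were the highest of all 9. The leucine transporter SLC7A5 was at 71.5, 64.5 and 71.02 FPKM under Cont CM and 87.05, 91.4 and 88.6 under TIS CM (1.29-fold, limma adjusted p = 0.00997), SLC1A4 rose 1.33-fold and SLC43A3 1.14-fold.

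Chaperones of the endoplasmic reticulum held 2 rises among 30 (6.67% against 2.9% of all genes). SDF2L1 was at 8.99, 9.75 and 9.77 FPKM under Cont CM, 14.2, 12.6 and 14.1 under TIS CM and 11.9, 9.62 and 11.5 in No CM (1.41-fold, limma adjusted p = 0.01701), and CRELD2 rose 1.28-fold. Heat shock chaperones had 0 rises and 0 falls among 25. The proteasome subunit PSMB3 and the glutaminyl-tRNA synthetase QARS each rose 1.14-fold. Of the nutrient-sensing genes, DDIT4, an inhibitor of mTOR complex 1, was at 37.4, 46.1 and 48.4 FPKM under Cont CM and 58.9, 63.7 and 54.8 under TIS CM (1.35-fold higher, limma adjusted p = 0.0455). TXNIP, which limits glucose uptake, was at 48.2, 57.6 and 50.8 FPKM under Cont CM and 40.8, 42.97 and 42.9 under TIS CM (1.23-fold lower, limma adjusted p = 0.0325), with the TIS CM libraries below both other groups (48.2, 45.8 and 46.1 FPKM in No CM). The 22 calls of the nutrient and stress lists lost 22, 21 and 19 without TIS CM 1, 2 and 3 and 3, 20 and 8 without Cont CM 1, 2 and 3 (limma adjusted p between 0.0515 and 0.153), and 17 with the trend removed. SLC1A5 and SDF2L1 were the 2 that passed with the 6 compared libraries alone (limma adjusted p up to 0.104 for the others).

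Ribosomal and respiratory chain genes had small differences mostly above 0. Of 82 cytosolic ribosomal protein genes 7 rose (8.54% against 2.9% of all genes), 0 fell and 74 had a difference above 0 (median 0.08). The median was 0.05 without Cont CM 1 and 0.04 under quantile normalization. Scaling to equal library sums left 2 rises, quantile normalization 3 and omission of Cont CM 2 0. RPL41 was at 379, 356 and 419 FPKM under Cont CM and 458, 508 and 498 under TIS CM (1.27-fold, limma adjusted p = 0.0405), and RPS19 rose 1.19-fold. Many of these genes have processed pseudogenes of like sequence, so their levels are uncertain. Mitochondrial ribosomal proteins held 5 rises among 49 (10.2% against 2.9% of all genes, median 0.10), MRPS34 by 1.26-fold and MRPL41 by 1.25-fold. Complex I held 1 call among 36, NDUFB7 (1.15-fold), a share of 2.78% beside 2.9% of all genes. Complexes II to V held 2 among 39 (5.13%), COX8A (1.29-fold) and CYC1 (1.18-fold). The 13 proteins encoded by mitochondrial DNA held 0 calls and a median of -0.02. In the omissions 15, 14 and 15 of the 15 calls on these lists were lost without TIS CM 1, 2 and 3 and 2, 13 and 7 without Cont CM 1, 2 and 3 (limma adjusted p up to 0.149), and 12 with the trend removed. None of the 15 passed in the fit of the 6 compared libraries (limma adjusted p between 0.0533 and 0.106).

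The cell cycle genes that passed rose, each by less than 1.5-fold. Of 34 G2/M genes BIRC5, CCNA2 and CDC25B rose, by 1.25, 1.17 and 1.17-fold, and none fell (8.82% higher against 2.9% of all genes, median 0.07, 0.02 without Cont CM 1). TK1 was the call among 35 G1/S genes (1.23-fold, 2.86% of the list) and KIF18B among 27 kinesins (1.16-fold, 3.7% of the list). The proliferation marker MKI67 was at 32.6, 41.2 and 38.4 FPKM under Cont CM and 35.6, 37.96 and 34.96 under TIS CM, with overlap (limma adjusted p = 0.833). Among 25 inhibitors, p53 targets and lamins, CDKN2C, which encodes the CDK inhibitor p18, was at 10.8, 11.9 and 13.1 FPKM under Cont CM and 16.6, 16.001 and 16.4 under TIS CM (1.36-fold higher, limma adjusted p = 0.0113), and BBC3 and LMNA rose 1.37 and 1.16-fold (12.% of the list higher). CDKN1A, the p21 gene induced by p53, overlapped between groups (log2 fold change -0.03, limma adjusted p = 0.889). LMNB1, whose loss marks senescent cells, was at 29.8, 35.2 and 34.8 FPKM under Cont CM and 38.2, 39.99 and 39.9 under TIS CM (limma adjusted p = 0.0577). None of 13 tubulin genes, whose transcripts respond to microtubule drugs, and none of 20 replication-dependent histone genes was called. Omission of TIS CM 1, 2 and 3 cost 8, 8 and 7 of these 8 calls and omission of Cont CM 1, 2 and 3 cost 1, 7 and 3 (limma adjusted p up to 0.127). Removal of the trend cost 6, and the fit of the 6 compared libraries cost all 8 (limma adjusted p between 0.0565 and 0.0859).

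Of 941 tested genes to which the deposited table gives a transcription factor family 24 rose (2.55%) and 17 fell (1.81%), shares near the 2.9% and 1.57% of all tested genes, with a median log2 fold change of -0.03. Leaving out TIS CM 1, 2 and 3 gave 2, 3 and 8 rises and 0, 0 and 1 falls, and leaving out Cont CM 1, 2 and 3 gave 44, 7 and 15 rises and 34, 2 and 11 falls. Trend removal gave 8 rises and 3 falls, and the 6 compared libraries alone 3 and 0. Beside those named above, HIVEP2, a zinc finger factor that binds NF-kB sites, was at 4.98, 4.79 and 4.397 FPKM under Cont CM and 3.31, 3.62 and 3.27 under TIS CM (1.34-fold lower, limma adjusted p = 0.0173). None of 193 zinc finger genes on chromosome 19 and none of 49 chromatin modifiers was called. Of 39 splicing factors and helicases SNRPB and HNRNPL rose (5.13%) and RBM25 fell (2.56%), each by less than 1.5-fold. All 3 calls were lost without any of TIS CM 1, 2 and 3 or Cont CM 2 and 3 (limma adjusted p up to 0.142). They were also lost with the trend removed or the 6 compared libraries alone.

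Several of the largest changes fell outside these lists. PLEKHS1 was at 0.516, 0.7902 and 0.812 FPKM under Cont CM, 1.44, 1.64 and 1.32 under TIS CM and 3.07, 2.41 and 2.79 in No CM (1.64-fold higher, limma adjusted p = 0.0206). Cystatin F (CST7), an inhibitor of lysosomal cysteine proteases, was at 13.7, 14.8 and 15.8 FPKM under Cont CM and 24.04, 24.6 and 19.98 under TIS CM (1.53-fold higher, limma adjusted p = 0.0134), and RCSD1, which binds actin capping protein, at 3.07, 2.49 and 2.63 FPKM under Cont CM and 4.16, 4.44 and 4.12 under TIS CM (1.47-fold higher, limma adjusted p = 0.00997). Among the falls, the kinase anchor AKAP12 was at 5.69, 7.02 and 5.91 FPKM under Cont CM and 4.23, 4.32 and 4.42 under TIS CM (1.39-fold, limma adjusted p = 0.0165), the growth factor pleiotrophin (PTN) fell 1.396-fold, TMEM45A 1.38-fold and CPED1 1.37-fold. All of these were chosen among genes whose groups did not overlap. U2AF1L5, at 0.532 FPKM under Cont CM and 1.31 under TIS CM, is a near-identical copy of U2AF1, so its level is uncertain. Without TIS CM 1 and 2 all 8 of these calls were lost, and CPED1 and PTN passed in only 1 omission each. In the fit of the 6 compared libraries all 8 were lost as well (limma adjusted p between 0.0533 and 0.0859). Trend removal ended the calls of PTN, TMEM45A and CPED1 (limma adjusted p = 0.065, 0.0581 and 0.085).

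Among genes that do not code for proteins 24 rose and 16 fell. Their shares were below those of protein-coding genes, of which 3.37% rose and 1.8% fell, against 2.9% and 1.57% of all genes. For example, 10 of 1070 antisense genes rose and 4 fell. All 40 non-coding calls were lost without TIS CM 1 or TIS CM 2 (limma adjusted p up to 0.151). The fit of the 6 compared libraries alone ended 38 of them, and trend removal 32. Of the 40, 20 overlap another tested gene, and 11 of the 14 antisense genes do. Strand handling was not given in the sources used here. AC068580.3, which lies opposite CTSD and was at 18.4, 18.8 and 25.1 FPKM under Cont CM and 30.1, 38.6 and 34.2 under TIS CM, therefore cannot be separated from CTSD. NDUFB2-AS1, opposite NDUFB2, was at 2.005, 1.76 and 2.398 FPKM under Cont CM and 3.601, 3.91 and 3.28 under TIS CM, while NDUFB2 itself had a log2 fold change of 0.19 (limma adjusted p = 0.0751). The small nucleolar RNA gene SNORA72, inside RPL30, was at 0.2296, 0.423 and 0.773 FPKM under Cont CM and 1.93, 2.52 and 1.799 under TIS CM (2.698-fold higher, limma adjusted p = 0.0157). Such short genes rest on few fragments. The T cell receptor constant segment TRBC2 was at 12.04, 11.8 and 11.1 FPKM under Cont CM and 8.5004, 8.32 and 6.75 under TIS CM (1.46-fold lower, limma adjusted p = 0.0145), in libraries where CD3E was at or below 0.0278 FPKM.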

How the data were processed

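Polyadenylated RNA of 9 MDA-MB-231 libraries was sequenced, per the labels' protocols. The authors deposited FPKM per gene, and hg38, DESeq2 1.20.0, featureCounts 1.5.0-p3, fastp and HISAT2 2.0.5 are named without roles, per the submitters' processing notes. All deposited FPKM were whole multiples of the value of 1 fragment within 0.01, so fragments could be recovered for depth and for voom.

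Genes with a mean of at least 0.5 FPKM over 9 libraries were tested with limma 3.58.1 in R 4.3.3 on log2(FPKM + 0.5), with group means of all 9 libraries, an intensity trend and moderated variances. The contrast was TIS CM minus Cont CM, adjusted over 13912 genes. FPKM are relative to each library's total, so a change in abundant genes shifts the values of the others. GC content came from the longest GENCODE 29 transcript (99.98% of tested genes matched). Promoters, from RefSeq's GRCh38.p14 table, were matched by symbol for 9859 of 13912 tested genes (70.9%). Motif shares are given over all promoters and over those of tested genes, and are not compared among called genes here. Where several starts were listed the most upstream was used.

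Named genes were the 20 largest protein-coding rises and falls with no overlap and at least 1 FPKM in the higher group, genes called in all 6 omissions, up to 4 called members per direction of each list, up to 10 called non-coding genes per direction, and a fixed set of inflammation, antigen presentation, hypoxia and senescence genes. The members and lists were chosen with earlier results of these data known. A few named genes and 1 gene list are left out of the text and figures. Replicate numbers were not treated as pairs. Alternatives were pseudocounts of 0.1 and 1, other filters, other scalings, trend removal, voom, a fit of 6 libraries, a replicate block and each library left out. Figures were drawn with matplotlib 3.10.9.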

Additional observations from a re-analysis of the deposited data

How the results depend on the processing

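Calls of 404 genes higher and 219 lower depended strongly on the libraries. Leaving out single libraries gave between 7 and 675 higher and between 4 and 409 lower, the smallest without TIS CM 1 and the largest without Cont CM 1. Without TIS CM 2 the counts were 20 and 5, without TIS CM 3 58 and 25, without Cont CM 2 67 and 32, and without No CM 1, 2 and 3 217 and 122, 237 and 122, and 242 and 113. The 6 compared libraries alone gave 23 and 10, no filter 128 and 79, protein-coding genes alone 617 and 378, voom 625 and 460 and trend removal 99 and 54. The share of calls that were higher was 64.8%, and 41.8% with equal library sums (284 and 395) and 53.2% with quantile normalization (310 and 273). No setting moved the median of all genes by over 0.1. None of the 172 named genes called changed sign in any setting, and 11 of them kept the call without TIS CM 1. The cause of these shifts was not tested. Some settings also changed the number of libraries or the set of genes tested, and the part of that was not tested either. Whether the same replicate numbers in Cont CM and TIS CM mark pairs was not stated. Deviations from the group means of same-numbered libraries correlated at -0.08, -0.01 and -0.05 across genes. These values cannot decide it, because single libraries also carried composition trends of their own. With the replicate block 95 genes were higher and 31 lower. Short and low genes rest on few fragments.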
